A study of Mus musculus with 6 samples.

Results

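The AP-1 transcription factors described here are 10 genes chosen by symbol from the 49492 rows of a table of read counts. They are the Fos genes Fos, Fosb, Fosl1 and Fosl2, the Jun genes Jun, Junb and Jund, the small Maf genes Maff and Mafk, and Atf3. All 10 have a row in the table and all 10 passed the filter on low counts. The RNA came from CD8 T cells taken as naive cells from the spleen and kept for 24 hours with anti-CD3 fixed to the plate (1 µg/ml) and anti-CD28 in solution (1 µg/ml). Libraries labelled KO came from NIK-CD4Cre-OT-I mice and libraries labelled WT from Wild Type-OT-I mice, all on a C57/BL6 background and 6 to 8 weeks old. There were 3 KO libraries (replicates 4, 5 and 6) and 3 WT libraries (replicates 1, 2 and 3). Both genotypes carry the OT-I T cell receptor transgene, and both received the same stimulation. Map3k14 encodes NIK, the kinase at the head of noncanonical NF-kB signalling, and a Cre transgene under Cd4 control is active in thymocytes, before CD8 cells part from CD4 cells. The labels do not say whether WT mice carried Cre or a conditional allele, nor that libraries came from separate mice, so p-values measure only how these libraries spread, which may be technical. No unstimulated library was analysed here, so the values are levels after stimulation and not induction.

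AP-1 is a dimer of basic leucine zipper proteins: a Jun protein pairs with itself or with a Fos protein and binds the site TGANTCA (N is any base) in regulatory DNA. Signals from the T cell receptor and CD28 reach it through MAP kinases, which raise transcription of Fos and Jun genes and phosphorylate their proteins, and in T cells AP-1 binds together with NFAT at cytokine genes such as Il2. Fos and Fosb are classical immediate early genes whose transcripts appear and decay quickly, whereas Fosl1 and Fosl2, which encode FRA-1 and FRA-2, are induced later. Small Maf proteins have no activation domain and pair with themselves, with CNC and BACH proteins or with other zipper proteins. ATF3 is a stress-induced member of the ATF group that can pair with Jun proteins and often acts as a repressor.

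Promoter sequences are shown for Atf3 and Mafk, 2 of the members whose KO and WT libraries did not overlap, and for Fos and Jun, whose libraries did overlap. Each run is the 250 bases before the gene start in RefSeq (build GRCm38.p6), read 5′ to 3′ on the gene's own strand. Of the 10 members, 9 had an entry. The RefSeq start of Atf3 lies 34706 bases inside the gene as GENCODE M21 gives it, so its window precedes an internal start of that annotation, and the RefSeq start of Jund lies at position -1210 relative to the GENCODE gene start, outside the gene, so the Jund window may not hold its promoter. Capitals mark the 8-base elements TTACGTCA and TGACATCA, which are variants of the cAMP response element and of the AP-1 site, the core TGACG of the cAMP response element and the TATA box TATAAA. These letters were chosen with the sequences in view. The regions are chr1:191183334-191183583 (minus strand) for Atf3, chr5:139791286-139791535 (plus strand) for Mafk, chr12:85473640-85473889 (plus strand) for Fos and chr4:95052223-95052472 (minus strand) for Jun.
Atf3: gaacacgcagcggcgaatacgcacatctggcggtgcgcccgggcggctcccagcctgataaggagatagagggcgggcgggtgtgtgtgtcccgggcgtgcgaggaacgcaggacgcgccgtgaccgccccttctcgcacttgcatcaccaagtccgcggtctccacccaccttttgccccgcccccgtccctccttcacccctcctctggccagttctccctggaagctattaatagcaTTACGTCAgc
Mafk: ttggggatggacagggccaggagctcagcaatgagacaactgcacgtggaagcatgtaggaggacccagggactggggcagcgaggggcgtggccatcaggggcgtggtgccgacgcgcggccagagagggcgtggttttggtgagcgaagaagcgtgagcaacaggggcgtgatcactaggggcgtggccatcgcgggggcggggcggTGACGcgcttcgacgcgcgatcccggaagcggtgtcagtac
Fos: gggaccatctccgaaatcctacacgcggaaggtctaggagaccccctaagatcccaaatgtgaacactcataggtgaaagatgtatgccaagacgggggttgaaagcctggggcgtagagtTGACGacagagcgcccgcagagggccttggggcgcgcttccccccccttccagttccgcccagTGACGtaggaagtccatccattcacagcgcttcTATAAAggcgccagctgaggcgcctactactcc
Jun: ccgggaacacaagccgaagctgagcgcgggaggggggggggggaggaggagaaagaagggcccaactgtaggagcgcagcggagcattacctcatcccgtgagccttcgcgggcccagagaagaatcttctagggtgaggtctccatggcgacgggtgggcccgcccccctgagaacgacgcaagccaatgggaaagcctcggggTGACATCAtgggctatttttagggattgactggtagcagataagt

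Searched on both strands, TTACGTCA began 10 bases before the RefSeq start of Atf3 and is held by 0.447% of 32851 promoter windows of this length. TGACATCA began 45 bases before the Jun start, was also found at 1 of the 3 listed starts of Maff, and is held by 2.93% of windows. The core TGACG, which TTACGTCA contains on its other strand, was found in 6 of the 9 members with an entry, Jund counted among the 9 (Fos, Fosb, Junb, Maff, Mafk and Atf3). It is held by 17.8% of all windows. Members count once each, though Maff has 3 windows, and the letters were chosen with the sequences in view, so no enrichment can be read from these shares. TGACGTCA, the full cAMP response element, was found at another start of Maff alone and is held by 1.55% of windows. The AP-1 site TGANTCA, held by 6.75% of windows, was in none of the 9 members' windows, the doubtful one of Jund included, which says only that these letters are absent there. A match describes letters in a window and is not a measured binding site.

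Gene counts summed to between 41311346 and 47851445 per library, and 3 counts correspond to between 0.0627 and 0.0722 normalised CPM, which is the gene's share of all counts after scaling to a common library size. Markers of CD8 T cells summed to between 1946 and 2003 CPM in KO libraries and between 1786 and 1938 CPM in WT libraries, and Cd3e, Cd8a and Cd8b1 were present in all. Map3k14 had a log2 fold of -0.12 (SE 0.11, edgeR adjusted p = 0.81), so the count over the whole gene did not set the genotypes apart. A conditional allele can lose only some exons, so this count could not check the labels, and KO and WT stand here for libraries as they are labelled. By Xist and Y-linked counts, each genotype held both sexes: KO replicates 4 and 5 and WT replicate 2 were male, and KO replicate 6 and WT replicates 1 and 3 were female. In a principal component analysis of all tested genes the first component held 29.9% of the variance and placed KO replicates 4, 5 and 6 at -25.6, -3.29 and -11.3, and WT replicates 1, 2 and 3 at -13.7, 20.4 and 33.5, so WT replicate 1 lay among the KO libraries on this component. On the second component, with 22.0% of the variance, the KO libraries lay at -10.9, -9.06 and 2.21 and the WT libraries at 25.9, -25.8 and 17.7, with WT replicate 1 farthest from the KO libraries.

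Per kilobase of exon, Jund and Junb stood above the other members after 24 hours of stimulation. Jund averaged 373.5 CPM per kb ± 12.4 in KO libraries and 374.8 ± 41.5 in WT libraries (SD, n = 3 each), and Junb averaged 128.5 ± 8.18 and 144.7 ± 18.9 CPM per kb. Next came Atf3 (23.3 ± 1.65 in KO and 33.0 ± 6.10 in WT), Jun (22.6 ± 3.76 and 22.0 ± 2.73) and Mafk (16.4 ± 0.943 and 18.3 ± 0.154). Fosl2 (10.001 ± 1.68 in KO and 11.6 ± 2.34 in WT), Fosl1 (7.23 ± 0.971 and 9.94 ± 2.00) and Fos (5.27 ± 0.389 and 5.58 ± 0.912) followed. Maff (2.71 ± 0.744 in KO and 3.05 ± 0.855 in WT) and Fosb (1.42 ± 0.298 and 1.53 ± 0.197) were lowest. Each gene lay above the next in the order in all 6 libraries, except that Atf3 lay above Jun in 5 of 6, so the order of Atf3 and Jun was not settled beyond their spread. Exon lengths join all annotated isoforms in GENCODE M21, from 1668 bases for Jund to 9680 for Fosl2, so a level per kb is an underestimate where a shorter isoform is used.

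**Figure D1:**
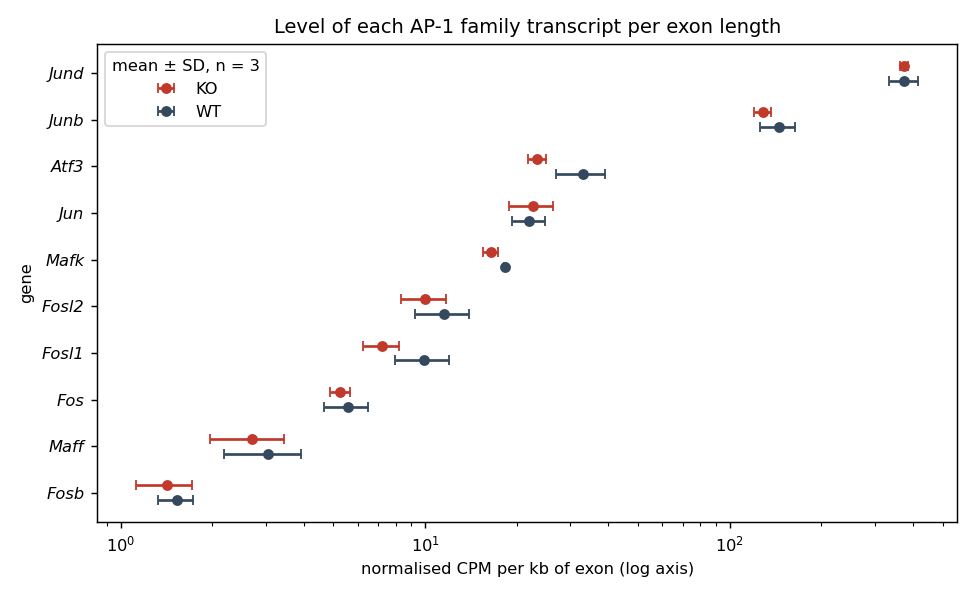
Mean level of each member in normalised CPM per kb of exon on a log axis, with KO above WT in each row and bars giving the SD over 3 libraries. Jund, at about 374 CPM per kb over all libraries, and Junb stand apart from the other 8 members, and Atf3 and Fosl1 show the widest gap between genotypes.

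Within families, Jund made up 71.2% ± 2.06 of the summed Jun level per kb in KO libraries and 69.1% ± 4.96 in WT libraries, Junb 24.5% ± 1.497 and 26.8% ± 4.33, and Jun 4.30% ± 0.658 and 4.08% ± 0.644 (SD, n = 3 each). Among the Fos genes, Fosl2 and Fosl1 together outweighed Fos and Fosb: Fosl2 held 41.7% ± 4.00 of the summed level per kb in KO and 40.3% ± 2.09 in WT, and Fosl1 30.3% ± 3.76 and 34.7% ± 0.671. Fos itself held 22.1% ± 1.07 in KO and 19.6% ± 1.93 in WT. The summed level per kb was 23.9 ± 2.66 CPM in KO and 28.6 ± 5.27 CPM in WT for the Fos genes, and 524.5 ± 11.6 and 541.5 ± 21.4 CPM for the Jun genes. For the small Maf pair it was 19.2, 18.0 and 20.2 CPM per kb in KO replicates 4, 5 and 6, against 20.4, 22.3 and 21.4 in WT replicates 1, 2 and 3. The genotypes did not overlap in this sum, as in 6.07% of all tested genes taken singly, with KO lower. Mafk supplied 85.9% ± 3.49 of it in KO and 85.8% ± 3.35 in WT, and the groups of Maff overlapped, so the sum mostly restates Mafk.

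Between genotypes, none of the 10 members passed the test, which was edgeR's quasi-likelihood test with Benjamini-Hochberg adjusted p under 0.05 over all 15186 tested genes (1 gene, or 0.00659%, was called). The members with the smallest p were Atf3, Mafk and Fosl1. In these 3 every KO library lay below every WT library, as it did in 6.07% of all tested genes, and their unadjusted p was under 0.05 with a lower value in KO, as for 3.44% of all tested genes. No member had all KO libraries above all WT libraries, against 6.68% of all tested genes, and 0 had an unadjusted p under 0.05 with a higher value in KO, against 3.82%. DESeq2 also called 0 of 10, with 0.598% of its genes called. Of the log2 folds (KO over WT), 9 of 10 were negative, against 47.6% of all tested genes, and the median was -0.16, against 0.01 over all tested genes. In bulk RNA a smaller share of expressing cells and less RNA per cell cannot be told apart.

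**Figure D2:**
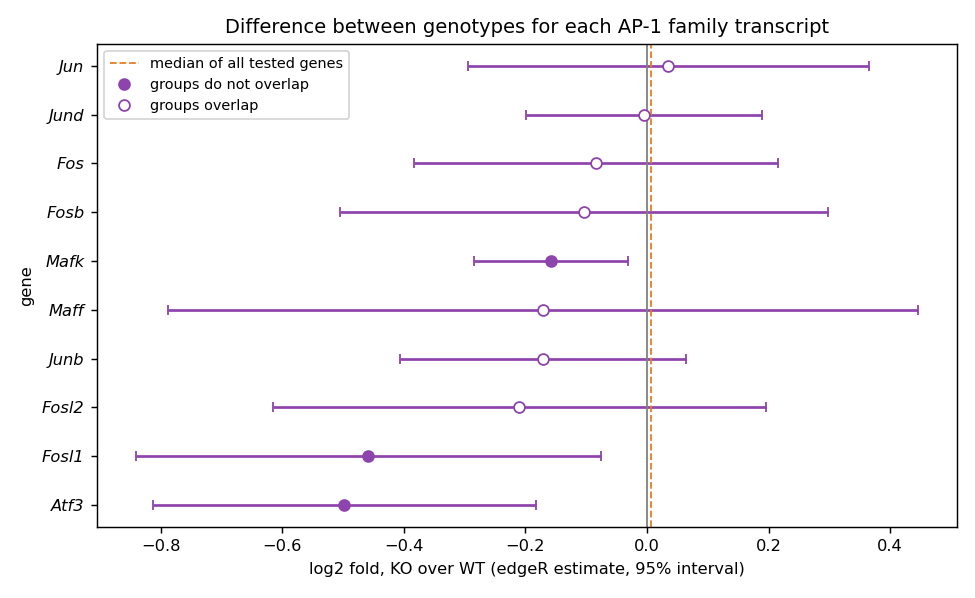
Log2 fold of KO over WT for each member, with its 95% interval from edgeR and filled points where the 3 KO and 3 WT libraries do not overlap. Atf3 (-0.50), Fosl1 (-0.46) and Mafk (-0.16) have intervals below 0 before adjustment, and Jun (0.04) and Jund (-0.01) lie beside the median of all tested genes.

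Atf3 (chr1:191170296-191218039, GRCm38, minus strand), the stress-induced repressor whose promoter is shown above, had 51.0, 46.4 and 53.4 CPM in KO replicates 4, 5 and 6, against 57.4, 83.6 and 71.9 CPM in WT replicates 1, 2 and 3. The KO libraries were close together, and the WT libraries were spread more widely, with WT replicate 1 nearest to KO. The log2 fold was -0.50 (SE 0.13, edgeR adjusted p = 0.60), a fold of 0.708 with a 95% interval from 0.570 to 0.881. DESeq2 gave an adjusted p of 0.05004, just outside its threshold. Without WT replicate 1 edgeR called Atf3 as lower in KO (log2 fold -0.63, SE 0.09, adjusted p = 0.037), in a fit that called 0.764% of its 15584 genes, 0.43% as lower. Over all alternatives its log2 fold ran from -0.63 to -0.36 and its adjusted p from 0.037 to 0.99. Within sexes, the difference in mean log2 CPM (KO minus WT) was -0.78 in males, with 2 KO libraries and 1 WT library, and -0.27 in females, with 1 KO library and 2 WT libraries. Both had to be negative because the groups did not overlap.

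**Figure D3:**
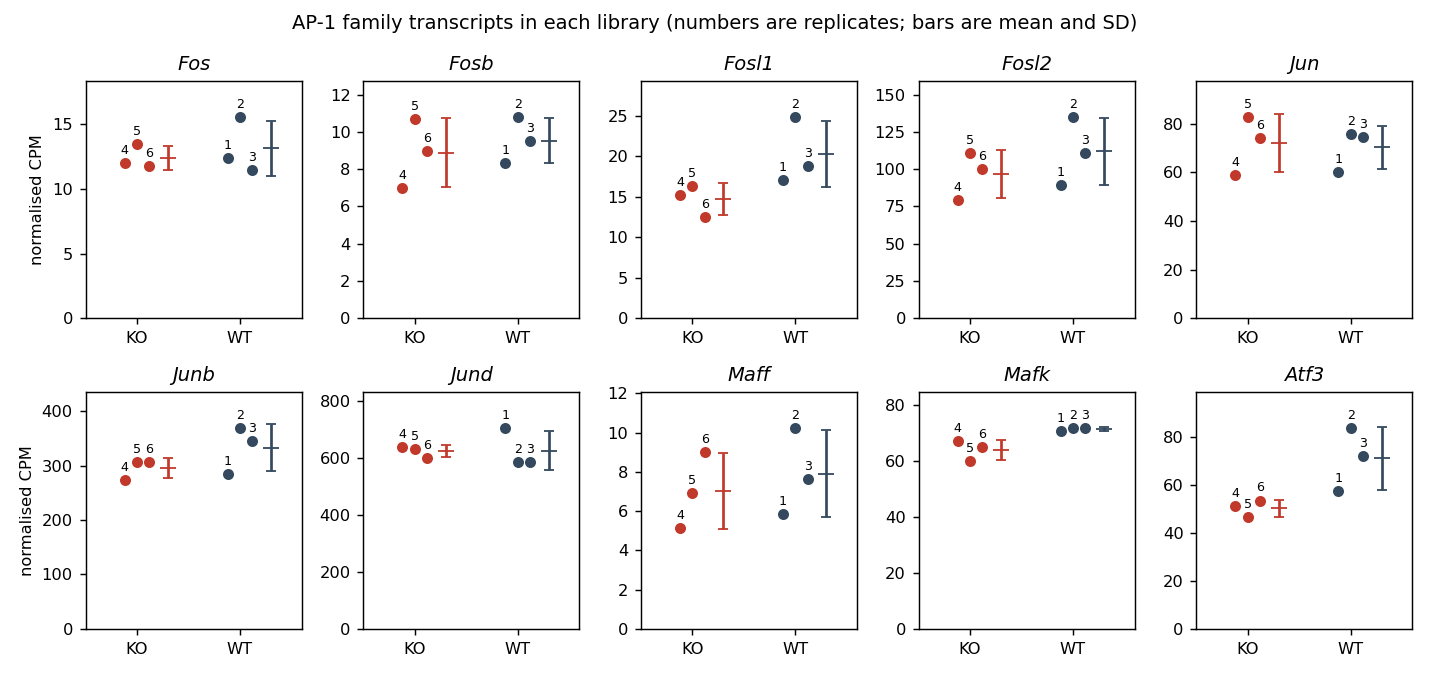
Normalised CPM of each member in every library, with KO on the left, WT on the right, replicate numbers beside the points, and the mean and SD at the right of each group; each vertical axis starts at 0. In Atf3, Mafk and Fosl1 all KO points lie below all WT points, and WT replicate 2 is the highest library for 7 of the 10 genes.

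Fosl1 (chr19:5447547-5455946, plus strand), which encodes the late Fos protein FRA-1, had 15.3, 16.3 and 12.5 CPM in KO replicates 4, 5 and 6, against 17.1, 24.8 and 18.8 CPM in WT replicates 1, 2 and 3. The groups did not overlap, but KO replicate 5 and WT replicate 1 lay close together and WT replicate 2 stood above all others. Its log2 fold was -0.46 (SE 0.16, edgeR adjusted p = 0.64), and the fold of 0.728 had a 95% interval from 0.559 to 0.949. The estimate was negative in all 14 alternatives, from -0.58 with sex as a term to -0.28 without WT replicate 2, which left no call. Without overlap between the groups, leaving out 1 library could hardly turn its sign. The difference in mean log2 CPM (KO minus WT) was -0.65 in males, with 2 KO libraries and 1 WT library. In females it was -0.51, with 1 KO library and 2 WT libraries. Both had to be negative because the groups did not overlap.

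Fosl2 (chr5:32135801-32157842, plus strand), the gene of FRA-2 and the most abundant Fos gene per kb, had 79.1, 111.05 and 100.3 CPM in KO replicates 4, 5 and 6. WT replicates 1, 2 and 3 had 89.7, 134.9 and 111.1 CPM. The groups overlapped, with a log2 fold of -0.21 (SE 0.17, edgeR adjusted p = 0.79) and a 95% interval of the fold from 0.653 to 1.15. The log2 fold was -0.05 without WT replicate 2 and -0.35 without WT replicate 1, so these libraries moved it by more than 1.5 times.

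Fos (chr12:85473890-85477273, plus strand), the founding member and an immediate early gene, had 11.98, 13.4 and 11.7 CPM in KO replicates 4, 5 and 6, against 12.4, 15.5 and 11.4 CPM in WT replicates 1, 2 and 3. Fosb (chr7:19302696-19310051, minus strand), its close relative, had 6.98, 10.7 and 8.98 CPM in KO libraries, against 8.33, 10.8 and 9.50 CPM in WT libraries in the same order of replicates. In both genes the groups overlapped throughout. The log2 fold was -0.08 for Fos (SE 0.13, edgeR adjusted p = 0.89; 95% interval of the fold from 0.767 to 1.16) and -0.10 for Fosb (SE 0.17, edgeR adjusted p = 0.90; from 0.705 to 1.23). The sign turned positive for Fos without WT replicate 2 (0.055) and for Fosb without KO replicate 4 (0.045).

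Jund (chr8:70698949-70700616, plus strand), the most abundant member and a factor that is expressed in most resting cells too, had 637.6, 632.0 and 599.2 CPM in KO replicates 4, 5 and 6, against 705.1, 585.2 and 585.2 CPM in WT replicates 1, 2 and 3. WT replicate 1 was the highest library, and the other WT libraries were the lowest. The log2 fold was -0.01 (SE 0.08, edgeR adjusted p = 0.99), with a 95% interval of the fold between 0.871 and 1.14. The sign turned in 4 of 14 alternatives, among them the fit without WT replicate 1 (0.091).

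Junb (chr8:84974484-84978718, minus strand), whose protein pairs with BATF in T cells, had 273.9, 305.7 and 307.2 CPM in KO replicates 4, 5 and 6, against 284.9, 369.2 and 344.7 CPM in WT replicates 1, 2 and 3. WT replicates 2 and 3 lay above all KO libraries and WT replicate 1 lay among them. Its log2 fold was -0.17 (SE 0.10, edgeR adjusted p = 0.71; 95% interval of the fold from 0.754 to 1.05), with a range from -0.27 without WT replicate 1 to -0.09 without WT replicate 2.

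Jun (chr4:95049034-95052222, minus strand), a gene known to be activated by its own protein product, had 59.0, 82.6 and 74.3 CPM in KO replicates 4, 5 and 6, against 60.2, 75.7 and 74.7 CPM in WT replicates 1, 2 and 3. KO replicate 4 and WT replicate 1 were low alike, and the other 4 libraries were high alike. The log2 fold of 0.04 (SE 0.14, edgeR adjusted p = 0.96; 95% interval of the fold from 0.816 to 1.29) was the single positive one among the members, and it was negative without WT replicate 1 (-0.064) or without KO replicate 5 (-0.076).

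Mafk (chr5:139791513-139802653, plus strand), the more abundant small Maf gene of the pair, had 67.1, 60.0 and 65.1 CPM in KO replicates 4, 5 and 6, against 70.8, 71.7 and 71.9 CPM in WT replicates 1, 2 and 3. The WT libraries were nearly equal, with a coefficient of variation of 0.841%, against 5.75% in KO. At the 3177, 3275 and 3331 counts of WT replicates 1, 2 and 3, counting error alone would on average give a wider spread. The closeness of the WT libraries thus says little about spread between libraries, and the difference in spread was not tested. The log2 fold was -0.16 (SE 0.05, edgeR adjusted p = 0.63), and the fold of 0.896 had a 95% interval from 0.821 to 0.979. The log2 fold stayed between -0.19 and -0.11 in all 14 alternatives. The difference in mean log2 CPM was -0.18 in males (2 KO libraries, 1 WT library) and -0.13 in females (1 KO library, 2 WT libraries). Every KO library lay below every WT library, so both had to be negative. For the same reason, leaving out 1 library could hardly turn the sign of the log2 fold.

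Maff (chr15:79346621-79359076, plus strand), the rarer small Maf gene, had 5.14, 6.93 and 9.0003 CPM in KO replicates 4, 5 and 6, against 5.84, 10.2 and 7.62 CPM in WT replicates 1, 2 and 3. It was the most variable member, with coefficients of variation of 27.5% in KO and 28.1% in WT. The log2 fold was -0.17 (SE 0.26, edgeR adjusted p = 0.89; 95% interval of the fold from 0.579 to 1.36). The difference in mean log2 CPM (KO minus WT) was -0.77 in males and 0.43 in females. A test of genotype by sex, added after seeing the data, gave an unadjusted p of 0.022 and an edgeR adjusted p of 0.99 for Maff, with 448 of 15186 genes under an unadjusted p of 0.05 and 0 called, so the sexes were not shown to differ.

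Across libraries, 7 members (Fos, Fosb, Fosl1, Fosl2, Junb, Maff and Atf3) were highest in WT replicate 2, and 5 (Fosb, Fosl2, Jun, Junb and Maff) were lowest in KO replicate 4. The median over the members of log2 CPM minus its mean over the 6 libraries was -0.20, -0.01 and -0.05 in KO replicates 4, 5 and 6, and -0.09, 0.27 and 0.09 in WT replicates 1, 2 and 3. WT replicate 1 thus lay among the KO libraries in this measure. B cell markers, with 6 of 6 detected, summed to 26.6, 30.0 and 39.0 CPM in KO replicates 4, 5 and 6, against 23.5, 70.4 and 45.3 CPM in WT replicates 1, 2 and 3, and so were also highest in WT replicate 2. Their part in the members' values was not tested. Without WT replicate 2 the median log2 fold of the members was -0.05, against -0.16 with all libraries, and 7 of 10 were negative.

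**Figure D4:**
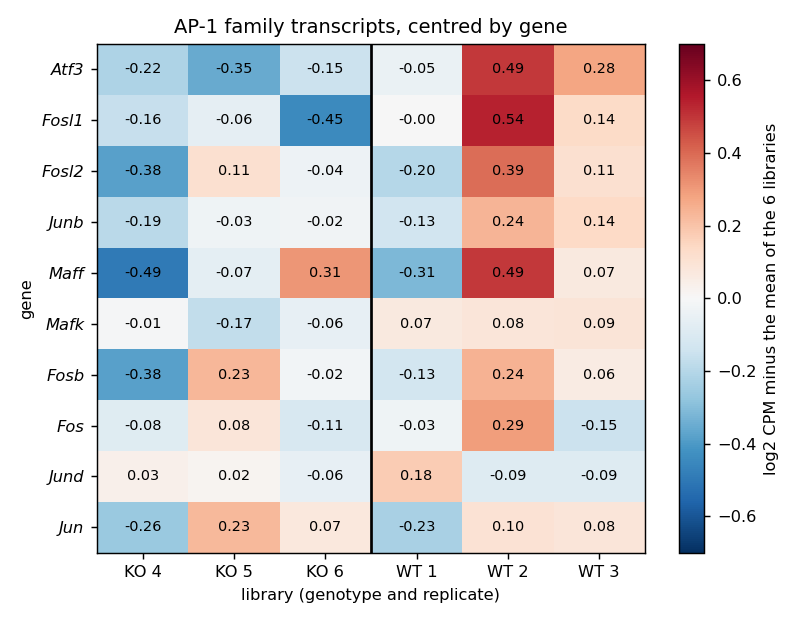
Log2 CPM of each member minus its mean over the 6 libraries, with genes in rows, KO libraries left of the line, WT libraries right of it, and red for values above the mean. WT replicate 2 is red in every row except Jund, where it is -0.09, and KO replicate 4 is below the mean in 9 of 10 rows.

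Macrophage and monocyte markers summed to 18.5, 9.07 and 20.6 CPM in KO replicates 4, 5 and 6, against 9.44, 11.1 and 6.02 CPM in WT replicates 1, 2 and 3, over 9 markers, of which Lyz2 did not pass 4.72 CPM in any library and Fcgr1 was at 0 in KO replicate 5 and in WT replicates 1 and 3. Dendritic cell markers summed to between 13.3 and 20.7 CPM in KO and between 12.2 and 18.5 CPM in WT, over 6 markers, with Xcr1 at 0 in every library but KO replicate 4. CD4 T cell markers summed to between 4.18 and 7.03 CPM in KO and between 7.20 and 13.1 CPM in WT, over 3 markers, none at 0. Foxp3 was the largest of these markers in every library, though not always most of the sum. It had 1.90, 3.05 and 4.81 CPM in KO replicates 4, 5 and 6, against 4.70, 3.44 and 11.5 CPM in WT replicates 1, 2 and 3, so its groups overlapped. Cd40lg had 1.36, 1.73 and 1.49 CPM in KO libraries, against 2.07, 3.02 and 1.23 CPM in WT libraries, in the same order. Cd4 itself had 0.920, 0.841 and 0.722 CPM in KO libraries, against 0.713, 0.744 and 0.367 CPM in WT libraries. The part of these cells in the members' values was not tested. NK cell markers were Eomes almost alone (between 176.9 and 282.1 CPM in KO and between 208.3 and 227.5 CPM in WT), a gene that CD8 T cells also express, and Ncr1, Klrb1c and Klra8 did not pass 0.173 CPM. Granulocyte markers summed to between 0.193 and 0.523 CPM in KO and between 0.111 and 0.367 CPM in WT, with Elane at 0 in all libraries. Platelet markers summed to between 2.34 and 3.30 CPM in KO and between 2.43 and 3.89 CPM in WT, from Itga2b, while Pf4 and Ppbp did not pass 0.0241 CPM. The mitochondrially encoded share of counts was between 1.32% and 1.38% in KO and between 1.28% and 1.42% in WT.

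Of the 10 members, 6 overlap another annotated gene, and whether counting used strand was not given in the sources used here, so reads in the overlaps cannot be told apart. These are Jun with the antisense RNA Junos, Junb with Prdx2, Jund with Gm11175, Fosl1 with Ccdc85b, Mafk with Tmem184a and Atf3 with Gm24748. None of the 4 tested partners was called, with log2 folds of 0.30 for Junos (edgeR adjusted p = 0.81), 0.06 for Prdx2 (0.79), -0.22 for Gm11175 (0.71) and -0.06 for Ccdc85b (0.84). Only 0.00659% of all tested genes were called, so the lack of a call says little about the overlaps. Tmem184a had at most 4 counts in a library, and Gm24748 was at 0 in all 6.

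The remaining zipper genes and the pathway around AP-1 were read from the same fit, in lists chosen with earlier results of these data known. With all 6 libraries and the low count filter edgeR called none of their genes, and 0.00659% of all tested genes. Over all tested genes 47.6% of estimates were negative and the median log2 fold was 0.01. At an unadjusted p under 0.05, 3.44% of all tested genes were lower in KO and 3.82% higher. Groups did not overlap, with KO lower, in 6.07% of all tested genes. This held for 1 of 9 other AP-1 and Maf factors and 1 of 4 CNC and BACH genes. Among other AP-1 and Maf factors, 5 of 9 tested genes had negative estimates (median log2 fold -0.03) and 2 an unadjusted p under 0.05, both lower. Mafg, the third small Maf gene, had the smallest p, with 87.3 CPM ± 1.49 in KO and 103.7 CPM ± 10.8 in WT (SD, n = 3 each), no overlap, and a log2 fold of -0.25 (SE 0.08, edgeR adjusted p = 0.61). Without WT replicate 1 edgeR called it (log2 fold -0.33, adjusted p = 0.037), in a fit that called 0.764% of its 15584 genes, 0.43% as lower. Batf, the partner of JunB in T cells, was named after its values were seen and had 16.03 CPM ± 1.39 in KO and 16.4 CPM ± 1.39 in WT (log2 fold -0.03, edgeR adjusted p = 0.94). Among CNC and BACH genes, which encode partners of small Maf proteins, 3 of 4 tested estimates were negative (median -0.13), and Nfe2l1 had the smallest p, with 229.8 CPM ± 8.94 in KO and 281.1 CPM ± 36.3 in WT (log2 fold -0.29, edgeR adjusted p = 0.62), no overlap, and a call without WT replicate 1 (log2 fold -0.39, adjusted p = 0.046).

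Over all tested genes the groups did not overlap in 6.07% with KO lower and in 6.68% with KO higher. The share of negative estimates over all tested genes was 47.6%, and 3.44% were lower and 3.82% higher at an unadjusted p under 0.05. Of CREB and ATF genes, 7 of 8 tested had negative estimates (median log2 fold -0.22), with 3 lower and 1 higher at that p. Groups did not overlap in 1 lower and 1 higher gene of this list. Atf4, the factor of the integrated stress response that is known to activate Atf3, had the smallest p, with 494.0 CPM ± 30.8 in KO and 581.6 CPM ± 49.0 in WT (SD, n = 3 each), no overlap, and a log2 fold of -0.24 (SE 0.08, edgeR adjusted p = 0.63). The MAP kinase cascades upstream of AP-1 had a median log2 fold of 0.03 over 25 tested genes, 7 of them negative, and all folds lay between -0.29 and 0.20. In 2 lower genes and 1 higher gene of these cascades the groups did not overlap. The smallest p of the cascades was that of Nras, a Ras protein that starts the ERK cascade, with 159.0 CPM ± 1.89 in KO and 173.3 CPM ± 4.78 in WT (log2 fold -0.12, edgeR adjusted p = 0.62), and no overlap. SRF and its cofactors, which act at the Fos promoter, were positive in 6 of 6 tested genes (median 0.08). Of these Elk3, a ternary complex factor, had 48.2 CPM ± 2.48 in KO and 31.9 CPM ± 2.25 in WT (log2 fold 0.59, SE 0.07, edgeR adjusted p = 0.23), and no overlap. DESeq2, which called 0.598% of its genes, called Elk3 (adjusted p = 3.6e-08). So did edgeR without a low count filter (0.0044), where 10 of 26275 genes were called, and without WT replicate 1 (0.027), where 0.764% were called.

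**Figure D5:**
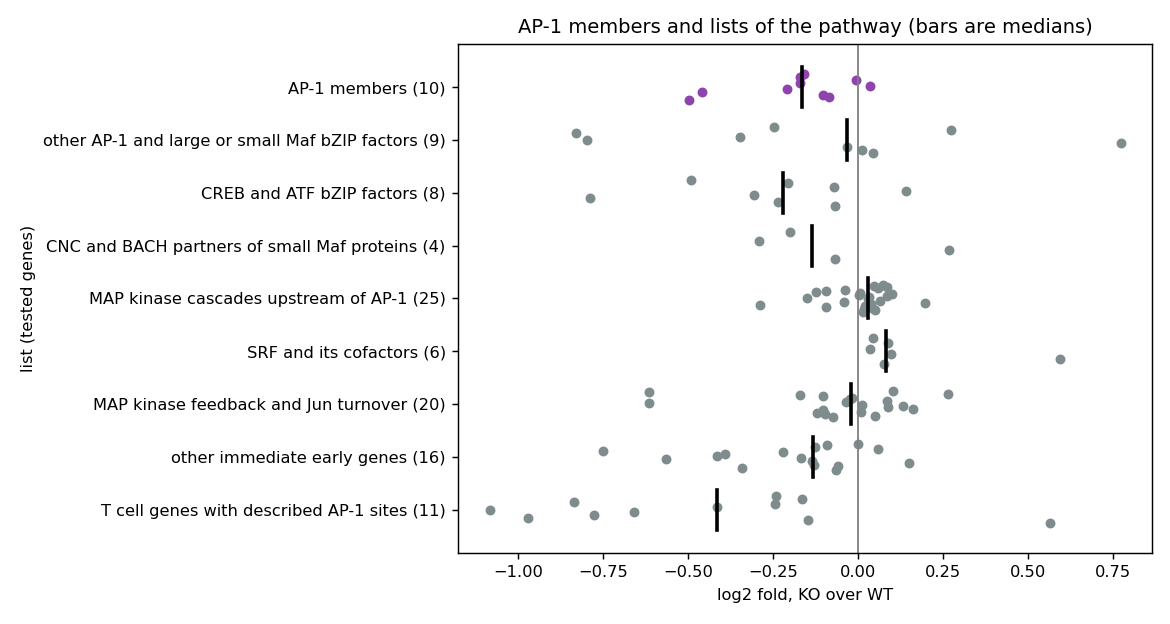
Log2 fold of KO over WT for every tested gene of the AP-1 members (top row) and 8 lists of the pathway, with the number of tested genes in brackets and a bar at each median. The MAP kinase cascades gather around 0.03, and the AP-1 members have a median of -0.16.

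For the next lists too, the shares over all tested genes were 47.6% negative and 3.44% lower at an unadjusted p under 0.05, with a median log2 fold of 0.01. Groups did not overlap, with KO lower, in 6.07% of all tested genes. In these lists, in the order given, this held for 1 of 20, 1 of 16 and 2 of 11 tested genes. MAP kinase feedback and Jun turnover genes had 11 of 20 negative estimates and a median log2 fold of -0.02. Spry4, an inhibitor of Ras signalling, had the smallest p, with 2.46 CPM ± 0.522 in KO and 3.77 CPM ± 0.726 in WT (SD, n = 3 each; log2 fold -0.61, edgeR adjusted p = 0.63), and no overlap. Other immediate early genes had 13 of 16 negative estimates and a median of -0.13, with 5 lower at an unadjusted p under 0.05. Myc, the growth regulator, had the smallest p (log2 fold -0.22, edgeR adjusted p = 0.60), with no overlap. Without WT replicate 1 edgeR called 2 genes of the list, Csrnp1 (log2 fold -0.45, adjusted p = 0.043) and the zipper gene Nfil3 (log2 fold -1.04, adjusted p = 0.049), both named after their values were seen. That fit called 0.764% of its 15584 genes, 0.43% as lower. Of 15 T cell genes with described AP-1 sites, 4 did not pass the filter on low counts. The tested genes had 10 of 11 negative estimates, a median of -0.42, and 4 lower at an unadjusted p under 0.05. The IL-2 receptor gene Il2ra had the smallest p of this list, with 784.3 CPM ± 72.0 in KO and 928.7 CPM ± 24.7 in WT (log2 fold -0.24, edgeR adjusted p = 0.61), and no overlap.

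Genes whose pattern over the 6 libraries was most like that of the 3 members with the smallest p were found by the root mean square distance between log2 CPM values centred on each gene's mean, over 9639 other genes of at least 5 CPM. For Atf3, whose own root mean square was 0.29, they were the immediate early gene Klf6 (distance 0.08), the amino acid transporter gene Slc1a4 (0.09) and Gm43890 (0.09). Klf6 had 173.7, 153.9 and 200.4 CPM in KO replicates 4, 5 and 6, against 187.1, 263.3 and 241.8 CPM in WT replicates 1, 2 and 3. Like Atf3 it was lowest in KO replicate 5 and highest in WT replicate 2, but its groups overlapped at WT replicate 1. For Fosl1 (own root mean square 0.30) they were Rgs16, an inhibitor of G protein signalling (0.08), the syntaxin gene Stx1a (0.08) and Tnfsf8, the gene of CD30 ligand (0.09), which were all highest in WT replicate 2 and lowest in KO replicate 6. For Mafk (own root mean square 0.09) they were Bloc1s4, the sialyltransferase gene St6galnac4 and the mitochondrial ribosomal gene Mrpl19, each at 0.02. None of these 9 genes was called, with edgeR adjusted p from 0.60 upward, and 0.00659% of all tested genes were called. They were chosen for likeness to members that were not called, so this adds no separate result.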

How the data were processed

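RNA was extracted with Trizol and sequenced on standard Illumina libraries, per the labels' protocols. The authors deposited raw read counts per gene symbol in 1 table, 1 column a library, and 0 columns stayed unused. The submitters' processing notes name HTSeq 0.9.1, DESeq2 and mm10, with aligner, annotation and strand options not given in the sources used here. EdgeR 4.0.16 (R 4.3.3) fitted genotype alone to all 6 libraries, with filterByExpr, TMM scaling and robust quasi-likelihood fits (glmQLFit and glmQLFTest). An SE is the size of the log2 fold over the square root of its F value. Intervals (95%) cover spread between libraries, and floors (3 counts) cover counting error only. CPM are TMM-scaled. No library was a duplicate of another: over genes with at least 200 counts, the mean chi-square per gene was 21.2 or more in all pairs. Alternatives were RLE factors, upper-quartile factors, no filter on low counts, a filter of 1 CPM in 3 libraries, DESeq2 1.42.0, limma-voom (3.58.1), no robust estimation, a term for sex, and leaving out each library. The procedure was also run on simulated counts, and the outcome is not given here. Coordinates and exon lengths were matched by symbol to GENCODE M21 (GRCm38, equal to mm10), which names 47240 of 49492 symbols. Named by rule were the members, Map3k14, the gene of smallest p in each other list, and the 3 genes most like each of the 3 members of smallest p. Members and lists were chosen with earlier results of these data known. One gene is not reported here.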

Additional observations from a re-analysis of the deposited data

How the results depend on the processing

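Over 14 alternatives, the log2 folds of Atf3, Fosl1, Fosl2, Junb and Mafk kept their sign in every one. For Atf3, Fosl1 and Mafk the groups did not overlap, so leaving out 1 library could hardly turn the sign. The remaining alternatives refitted the same 6 libraries. Atf3 was called in 1, without WT replicate 1 (log2 fold -0.63, edgeR adjusted p = 0.037). Signs turned for Jund with limma-voom (4.2e-05), with a sex term (0.0055), without WT replicate 1 (0.091) and without KO replicate 6 (0.023). They turned for Jun without WT replicate 1 (-0.064) and without KO replicate 5 (-0.076), for Fos (0.055) and Maff (0.061) without WT replicate 2, and for Fosb (0.045) and Maff (0.012) without KO replicate 4. With 1 library left out, log2 folds ran from -0.17 to 0.055 for Fos, from -0.26 to 0.045 for Fosb, from -0.076 to 0.16 for Jun, from -0.050 to 0.091 for Jund and from -0.39 to 0.061 for Maff. The cause was not tested. Leaving out 1 library gave from 0 to 1 called members, a median log2 fold of the members from -0.23 to -0.05, from 1 to 119 called genes in all, and from 0 to 5 called genes on the pathway lists (Mafg, Nfe2l1, Elk3, Csrnp1 and Nfil3), with the most calls in each case without WT replicate 1. DESeq2 called 89 genes and 1 on the pathway lists, and edgeR without a low count filter called 10 and 1, the list gene being Elk3 in both. RLE and upper-quartile factors left the median log2 fold of all genes within 0.01 of 0. No paired analysis was possible because the labels do not say which KO replicate (4 to 6), if any, belongs with which WT replicate (1 to 3). Depth left little counting error for the members, since the rarest in CPM, Maff, had 246 or more counts in each library.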
